A study of Arabidopsis thaliana with 11 samples.

Results

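The 4 genes APG8A, APG8H, ATG8C and ATG8H, of the ATG8 family whose proteins coat the autophagosome, were followed in sorted root cells of Arabidopsis. They were the probe sets whose annotated gene symbol was APG8A, APG8H, ATG8C or ATG8H, which gave 4 probe sets of the 22746 tested. APG8A is locus AT4G21980 (probe set 254346_at) and carries the RefSeq synonym ATG8A. APG8H is locus AT3G15580 (257293_at) and carries the synonym ATG8I, so that it is a different gene from ATG8H, locus AT3G06420 (258880_at). ATG8C is locus AT1G62040 (264285_at). Each gene had a probe set of its own. All 4 had a mean above 2.81, the 40th percentile of the mean log2 values of all deposited probe sets, under which a probe set is called dim here.

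Expression was measured on 11 arrays of RNA from 7-day-old seedlings whose roots were digested for 30 min to protoplasts and sorted by fluorescence. Cortex cells came from line J1551, with 3 control and 3 salt arrays, and pericycle cells from line J2731, with 2 control and 3 salt arrays. Control seedlings grew for 7 days without added salt. Salt seedlings had 5 days without it and then 2 days with it, at 25 and next at 50 mM NaCl, with CaCl2 supplements of 0.22 and 0.375 mM. An array stands for the pooled seedlings of a growth tank, and what drives the fluorescent marker in either line is not stated in the sources used. All groups went through protoplasting and sorting, so cell type is compared between lines and cannot be told apart from line.

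Autophagy carries cytoplasm and organelles into the vacuole, where they are broken down and their building blocks reused, and plants lacking it are sensitive to starvation and to salt. ATG8 is a small ubiquitin-like protein. ATG4 proteases trim its tail, the activating enzyme ATG7 and the conjugating enzyme ATG3 join it to the membrane lipid phosphatidylethanolamine, and cargo receptors then bind it on the growing membrane. Arabidopsis holds a family of such genes. The proteins of ATG8H and of APG8H (ATG8I) form a separate branch that ends at the conjugated glycine and so needs no trimming, whereas those of APG8A (ATG8A) and ATG8C belong to the branch with a longer tail.

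Of the 5 pericycle markers listed 1 was measured, so the label of the pericycle cells was checked with that gene alone. This was LBD16, a transcription factor gene of lateral root founder cells in the pericycle. Its log2 mean was 6.14 in pericycle control and 2.26 in cortex control samples (adjusted p = 4.93e-05 in limma). The 2 cortex markers measured did not mark the cortex samples. CO2 was dim in every group (1.75 to 1.89), and AT1G09750 had a mean of 5.05 in cortex and 5.87 in pericycle control samples (adjusted p = 0.283), so the identity of the cortex cells rests on the line. OPS, the 1 phloem marker measured, was higher in pericycle than in cortex samples by 1.67 ± 0.363 without salt and by 2.82 ± 0.325 with it (log2, SE; adjusted p = 0.0122 and 2.69e-04). Its values were 3.99 to 4.49 in cortex, 5.66 to 6.30 in untreated and 6.51 to 7.80 in salt-treated pericycle, so that the pericycle groups did not overlap (1.10 ± 0.363 with salt; adjusted p = 0.17). The 2 root hair markers measured, EXPA7 and EXPA18, had a mean per array of 4.79 to 5.30 in control cortex and 2.82 to 3.90 in salt-treated cortex. In pericycle cells that mean was 3.61 to 4.33 without salt and 2.57 to 4.36 with salt. Without salt EXPA7 had means of 4.82 in cortex and 3.06 in pericycle (adjusted p = 0.0533 in limma), and EXPA18 of 5.14 and 4.88 (adjusted p = 0.839). The part of phloem and root hair cells in the differences below was not tested. The listed markers of endodermis, xylem, non-hair epidermis and root cap were matched to no probe set with exactly 1 gene and were not analysed here. Pericycle salt replicate 1 was the least like its group, with correlations of 0.917 and 0.919 to its fellow arrays and the lowest array weight, 0.171. Several differences below are given without it as well, whereas the correlations that include pericycle arrays are not. Over all probe sets the median SD within a group was 0.139 to 0.181 in the cortex groups and 0.25 to 0.365 in the pericycle groups.

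The levels below are deposited log2 values, and they are compared between groups for a given gene and not between genes. The 4 groups were tested together in limma with a spread shared by all arrays, and a difference was called at an adjusted p (Benjamini-Hochberg over all 22746 probe sets) under 0.05. In bulk RNA of sorted cells, fewer cells expressing a gene and less RNA per cell cannot be told apart.

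The cell types were compared first. APG8A, ATG8H and APG8H each had a lower mean in pericycle than in cortex samples in both conditions, and APG8A was called lower in both. Under control conditions 2 of the 4 genes were called lower in pericycle and none higher, against 8.18% of all probe sets called lower and 6.71% called higher. Their arrays did not overlap between the cell types in any of the 4, with 3 lower in pericycle (22.4% of all probe sets) and 1 higher (22.1%). Under salt 3 of the 4 were called lower and none higher, against 10.1% and 7.76% of all probe sets. The groups did not overlap in 3, all lower in pericycle, where 19.1% of all probe sets were lower and 15% higher without overlap. The median log2 difference of the 4 genes was -1.43 without salt and -1.41 with it, beside 0.02 and 0.01 over all probe sets. The 4 genes and the lists below were chosen with earlier results of these data known. These counts and medians therefore describe the genes and do not test them as a set. Of the other 5 ATG8 genes, 2 were called lower without salt and 0 with it. The difference between 3′ and 5′ GAPDH control probe sets, a sign of RNA and labelling quality, was 1.10 to 1.25 in cortex control and 1.43 and 1.49 in pericycle control arrays, without overlap. Under salt it was 1.01 to 1.40 in cortex and 1.10 to 1.35 in pericycle arrays, and its part in the results was not tested.

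APG8A, of the branch whose tail is trimmed, had values of 9.17, 9.29 and 9.24 in cortex control samples, 9.04, 9.07 and 9.01 in cortex salt samples, 7.23 and 7.31 in pericycle control samples and 5.98, 7.26 and 7.72 in pericycle salt samples. Every cortex array lay above every pericycle array. The pericycle level was lower by 1.96 ± 0.394 on the log2 scale without salt (SE; n = 3 and 2; 3.9-fold; adjusted p = 0.00814 in limma). With salt it was lower by 2.06 ± 0.352 (n = 3 and 3; 4.16-fold; adjusted p = 0.00285). Without the array that stood apart the difference under salt was -1.55 ± 0.163 (adjusted p = 2.00e-04 in limma).

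ATG8H, of the branch without a tail, had values of 8.80, 9.15 and 9.31 in cortex control, 8.56, 8.74 and 8.53 in cortex salt, 7.50 and 7.41 in pericycle control and 7.62, 8.61 and 7.77 in pericycle salt samples. Under control conditions the groups did not overlap, and ATG8H was lower in pericycle by 1.63 ± 0.284 (3.1-fold; adjusted p = 0.00391 in limma). Under salt the groups overlapped, because pericycle salt replicate 2 reached the cortex range, and the difference of -0.61 ± 0.254 was not called (95% interval -1.18 to -0.05; adjusted p = 0.137). Without that array it was -0.92 (adjusted p = 0.0103 in limma), the 1 of 17 alternatives that called it. Without pericycle salt replicate 1 it was -0.42.

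APG8H (ATG8I), the other gene of the tailless branch, had values of 7.44, 7.97 and 8.16 in cortex control, 7.58, 7.86 and 7.56 in cortex salt, 6.89 and 6.36 in pericycle control and 4.34, 6.19 and 6.32 in pericycle salt samples. All cortex arrays lay above all pericycle arrays, as for APG8A. Under salt APG8H was lower in pericycle by 2.05 ± 0.46 (4.14-fold; adjusted p = 0.012 in limma), and by 1.41 ± 0.244 without the array that stood apart (adjusted p = 0.00335). The control difference of -1.23 ± 0.514 was not called (95% interval -2.38 to -0.09; adjusted p = 0.154). The same control difference was called in 2 of 17 alternatives in limma. Its adjusted p was 0.00607 with pericycle salt replicate 1 left out of the shared spread and 0.0424 with only the control groups fitted.

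ATG8C behaved otherwise. Its values were 4.83, 4.86 and 4.44 in cortex control, 5.10, 5.10 and 4.89 in cortex salt, 5.22 and 5.18 in pericycle control and 4.12, 4.29 and 4.36 in pericycle salt samples. Pericycle samples held its highest group without salt and its lowest with salt, and none of the 4 groups overlapped another. The control difference of 0.49 ± 0.182 in favour of pericycle was not called (95% interval 0.08 to 0.89; adjusted p = 0.108 in limma). Under salt ATG8C was lower in pericycle by 0.77 ± 0.162 (1.71-fold; adjusted p = 0.00857).

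**Figure D1:**
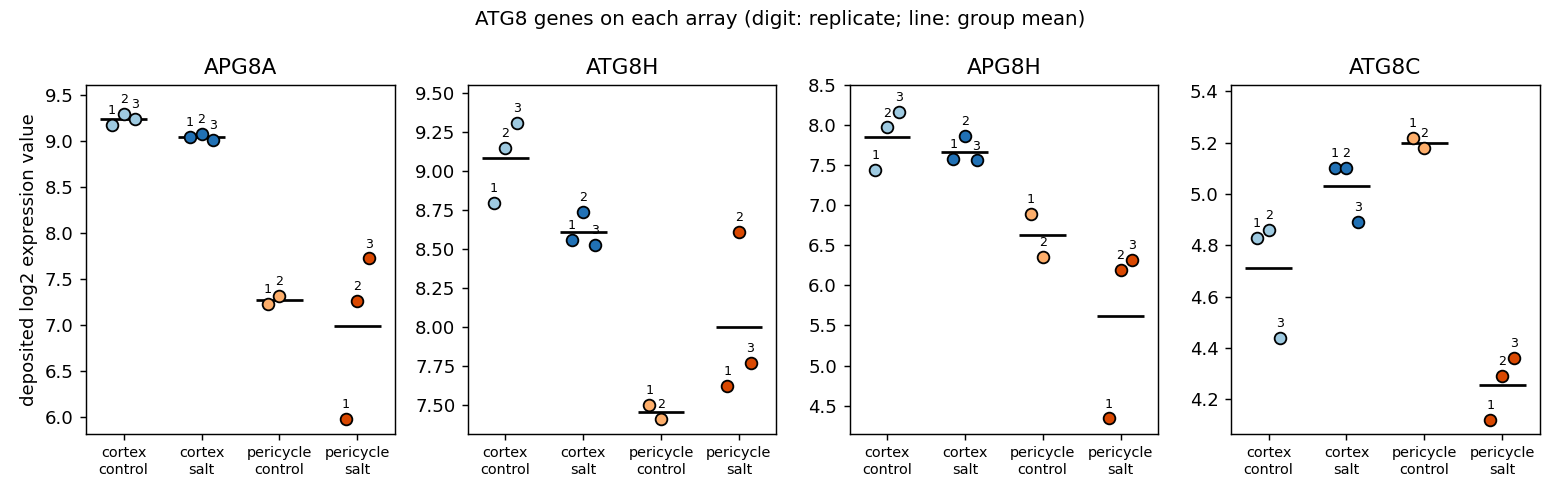
Deposited log2 expression value (vertical axis, own range in each panel) of APG8A, ATG8H, APG8H and ATG8C on each of the 11 arrays, with replicate numbers and the mean of each group as a line. For APG8A and APG8H every cortex array lies above every pericycle array, and the 3 pericycle salt arrays of ATG8C, at 4.12 to 4.36, lie below all the others.

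In order of group means, APG8A and APG8H ran from pericycle salt through pericycle control and cortex salt to cortex control. The ranges of the pericycle groups overlapped in APG8A and those of the cortex groups overlapped in APG8H, whereas the other neighbours in each order did not overlap. ATG8H ran from pericycle control through pericycle salt and cortex salt to cortex control, and its pericycle salt and cortex salt ranges overlapped. ATG8C ran from pericycle salt through cortex control and cortex salt to pericycle control, with no overlap between neighbours.

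The response of cortex cells to salt was examined next. None of the 4 genes was called in limma, and none had an unadjusted p under 0.05. Of all probe sets, 1.43% were called higher and 2.73% lower. ATG8H had a log2 difference of -0.47 ± 0.254 (95% interval -1.04 to 0.09; adjusted p = 0.464), and its 3 salt arrays lay below the 3 control arrays. ATG8C had a difference of 0.32 ± 0.162 (-0.04 to 0.68; adjusted p = 0.426), with its salt arrays above its control arrays. APG8A differed by -0.19 ± 0.352 and APG8H by -0.19 ± 0.46. Their intervals were -0.98 to 0.59 and -1.22 to 0.83. These errors come from the spread shared with the pericycle arrays. With only the cortex arrays fitted they were 0.11 and 0.192, and neither gene was called (adjusted p = 0.295 and 0.576 in limma). The errors of ATG8H and ATG8C were then 0.154 and 0.149, and neither was called (adjusted p = 0.0624 and 0.187). With array weights the ATG8H difference was -0.50 and was called (adjusted p = 0.0319 in limma), in 1 of 17 alternatives. The cortex groups did not overlap for APG8A and ATG8H, lower with salt, and for ATG8C, higher with salt, as was the case for 14.8% and 19.3% of all probe sets.

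In pericycle cells 1 of the 4 genes was called, against 0.95% of all probe sets called lower and 1.04% higher. ATG8C fell with salt by 0.94 ± 0.182 on the log2 scale, or 1.92-fold (n = 2 and 3; 95% interval -1.35 to -0.54; adjusted p = 0.033 in limma). The phloem marker OPS lay higher in the same salt arrays, as given above, and its part in this result was not tested. The 3 salt arrays, at 4.12 to 4.36, lay below the 2 control arrays, at 5.18 and 5.22. The size of the fall hardly moved when any 1 array was left out (-0.99 to -0.88), and it was -0.88 (adjusted p = 0.035) without the array that stood apart. The call was less stable than the size: it was kept in 3 of the 11 fits that left out an array and lost with only the pericycle arrays fitted (adjusted p = 0.585), with array weights (0.248), with a trended robust prior (0.125) and in the fit with the replicate block (0.0885), over a range of 0.0195 to 0.585 across all 17 alternatives.

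APG8H had a pericycle salt difference of -1.01 ± 0.514 (95% interval -2.16 to 0.13; adjusted p = 0.382 in limma), which was -0.37 ± 0.267 without pericycle salt replicate 1, whose value of 4.34 was the lowest of the gene. APG8A likewise had its lowest value on that array, and its difference of -0.28 ± 0.394 (-1.16 to 0.59; adjusted p = 0.805) became 0.22 ± 0.179 without it. ATG8H had a difference of 0.55 ± 0.284 in the opposite direction (-0.09 to 1.18; adjusted p = 0.397), and its 3 salt arrays, at 7.62 to 8.61, lay above the control arrays, at 7.41 and 7.50. The pericycle groups did not overlap for ATG8C, APG8H and ATG8H, with the first 2 lower with salt (10.8% of all probe sets) and ATG8H higher (10.2%).

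The difference between the responses of the cell types was then tested itself. For ATG8C the response was lower in pericycle than in cortex by 1.26 ± 0.244 on the log2 scale (95% interval -1.81 to -0.72; adjusted p = 0.0499 in limma), which is at the edge of the threshold. Of all probe sets, 0.246% were called lower and 0.589% higher in this comparison. It was not called in 13 of 16 alternatives, with an adjusted p of 0.0375 to 0.184 and a difference of -1.34 to -1.13, and it was -1.19 (adjusted p = 0.0452) without the array that stood apart. ATG8H had a response difference of 1.02 ± 0.381 (95% interval 0.17 to 1.87; adjusted p = 0.295), APG8H of -0.82 ± 0.69 (-2.36 to 0.72; adjusted p = 0.718) and APG8A of -0.09 ± 0.528 (-1.27 to 1.08; adjusted p = 0.974). These comparisons share arrays with those above, so they are not independent of them.

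**Figure D2:**
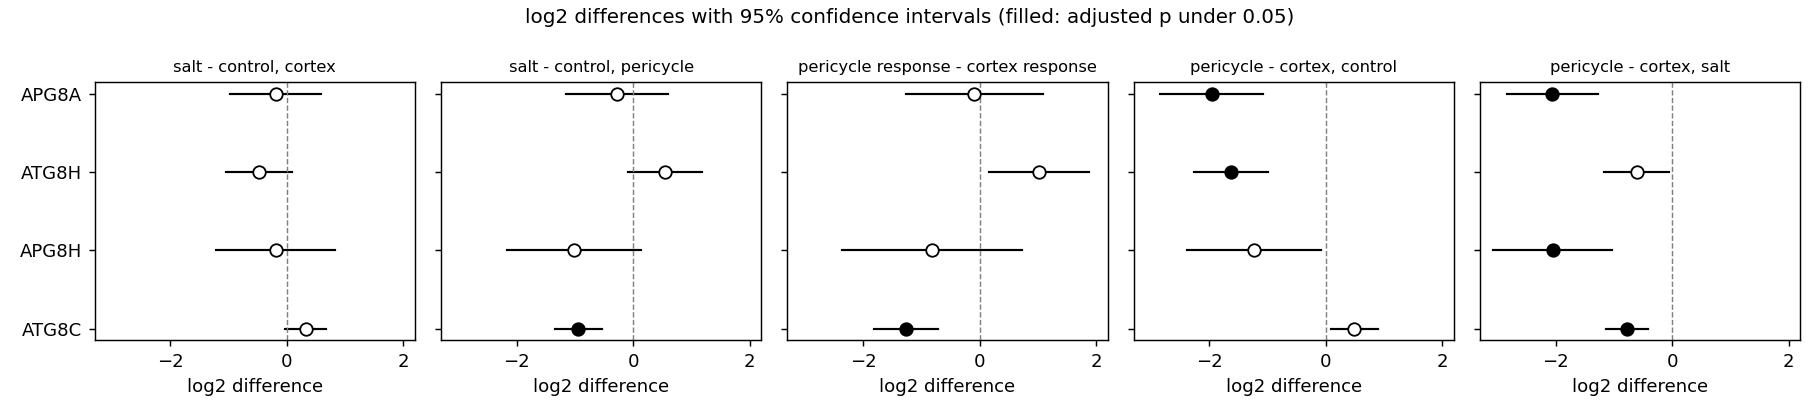
Log2 differences of the 4 genes in the 5 comparisons, with 95% confidence intervals from limma as bars and filled points where the adjusted p is under 0.05. APG8A lies near -2 in both comparisons of cell types, and ATG8C is the gene called for salt in pericycle, at -0.94.

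**Figure D3:**
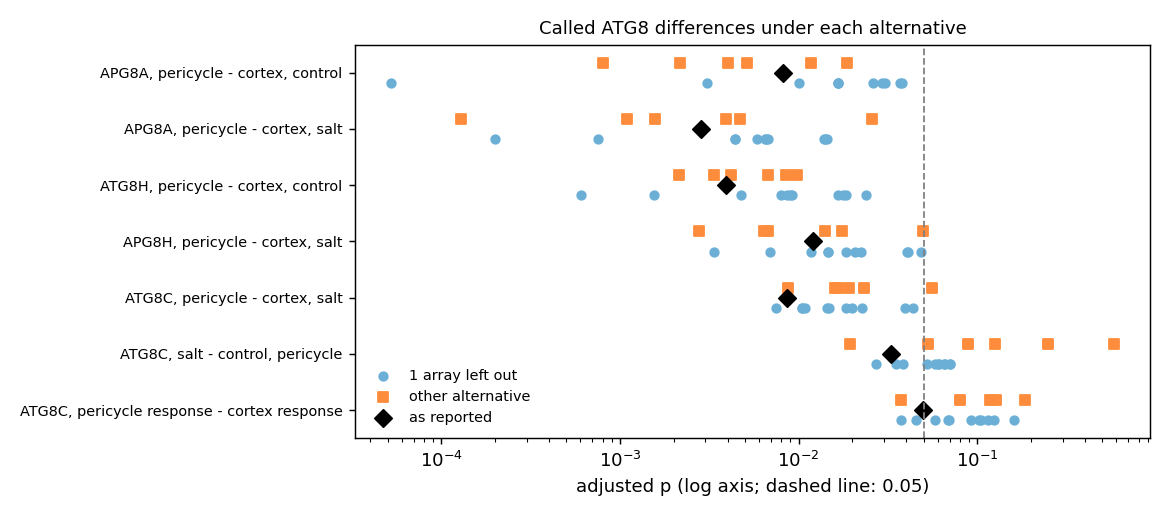
Adjusted p (log axis) of the 7 called differences as reported (diamonds), with 1 array left out (circles) and under the other alternatives (squares), with 0.05 as a dashed line. The cell type differences of APG8A, ATG8H and APG8H stay under 0.05 throughout, whereas those of ATG8C for salt in pericycle and for the difference of responses fall on both sides of it.

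The 4 called cell type differences of APG8A (in both conditions), ATG8H (control) and APG8H (salt) passed in all 17 alternatives, including each of the 11 arrays left out in turn. Their highest adjusted p over these alternatives was 0.0377, 0.0257, 0.0239 and 0.0496 in that order. For ATG8C under salt 16 of 17 passed, and with a trended robust prior the adjusted p was 0.056.

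The other 5 ATG8 genes were each measured by a probe set of their own, none of them dim by its mean over the 11 arrays. Under control conditions ATG8E was lower in pericycle by 0.87 ± 0.186 (8.32 in cortex and 7.44 in pericycle; adjusted p = 0.0112 in limma) and ATG8F by 0.92 ± 0.267 (9.56 and 8.64; adjusted p = 0.0454). ATG8F passed in 4 of 17 alternatives and was -0.42 without pericycle control replicate 2, while ATG8E passed in 16 of 17 and was -0.62 (adjusted p = 0.0765) without that array. Under salt none of the 5 was called in limma, against 10.1% of all probe sets called lower and 7.76% higher. Of the 5, 1 had an unadjusted p under 0.05, and the differences of ATG8E and ATG8F were -0.06 ± 0.167 and -0.59 ± 0.239. ATG8B, ATG8D and ATG8G were not called in any comparison with all arrays fitted. ATG8G had values of 3.79 and 1.82 in pericycle control and 6.45, 2.66 and 5.21 in pericycle salt samples, the widest spread of the 9 genes in the latter (SD 1.93, n = 3), and these groups overlapped. The pericycle control mean of ATG8G, 2.80, lay under the dim limit of 2.81. The salt difference of ATG8G in pericycle, 1.97 ± 0.908 (95% interval -0.05 to 3.99; adjusted p = 0.326 in limma), was the largest of the 9 in either cell type. That difference was called in 1 of 17 alternatives, at 3.03 (adjusted p = 0.038) without pericycle salt replicate 2. It was 1.13 (adjusted p = 0.475) without pericycle salt replicate 1 and 0.99 without pericycle control replicate 2. In cortex ATG8G differed with salt by 0.81 ± 0.812 (adjusted p = 0.824 in limma). The fit of only the cortex arrays (adjusted p = 0.0111) was the 1 of 17 alternatives that called it. Between the cell types without salt its difference was -1.88 ± 0.908 (adjusted p = 0.224 in limma). This was called in 1 of 17 alternatives, with pericycle salt replicate 2 left out of the shared spread (adjusted p = 0.0436). Without pericycle control replicate 2, whose value was 1.82, it was -0.89.

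Over all 9 genes, 4 were called lower in pericycle without salt (8.18% of all probe sets) and 3 with salt (10.1%), and none was called higher. Over the alternatives 2 to 5 of the 9 were called without salt and 2 to 4 with it. The log2 difference was negative for 8 of 9 genes without salt, ATG8C being the exception, and for 9 of 9 with salt, with medians of -0.92 and -0.67. With salt, none of the 9 genes was called in cortex in limma, against 1.43% of all probe sets called higher and 2.73% lower. There 1 of the 9, ATG8E, had an unadjusted p under 0.05 (-0.65 ± 0.167; 95% interval -1.03 to -0.28; adjusted p = 0.061). ATG8E was called in 5 of 17 alternatives, with an adjusted p of 0.00732 with only the cortex arrays fitted, 0.0017 with array weights, 0.0303 when one or the other pericycle control array was left out, and 0.0416 without pericycle salt replicate 1. In pericycle ATG8C was the gene called, against 0.95% of all probe sets called lower and 1.04% higher. The median response of the 9 genes was -0.02 in cortex and -0.11 in pericycle.

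**Figure D4:**
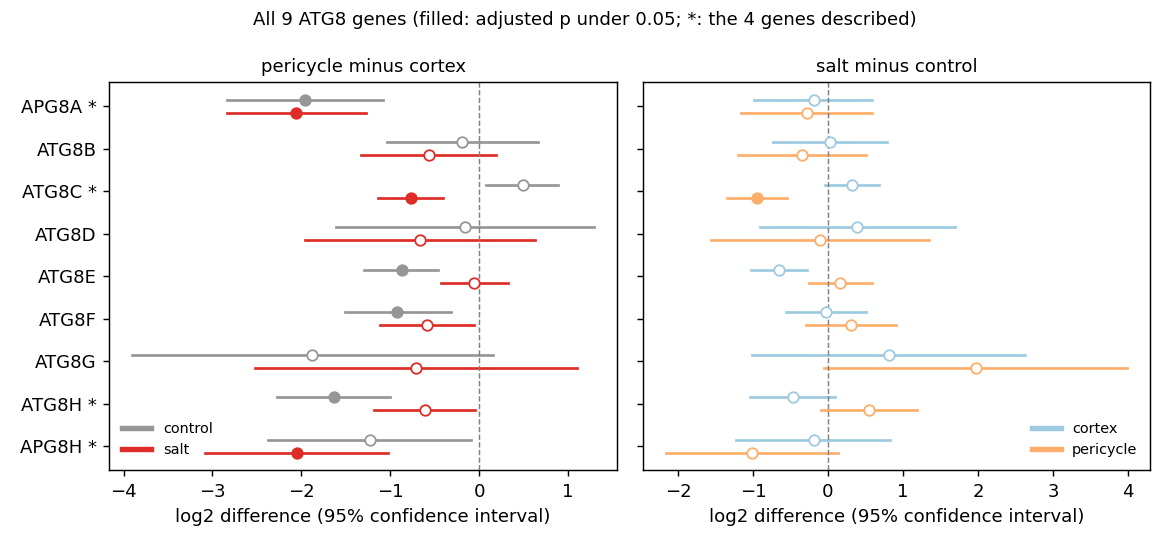
Log2 differences with 95% confidence intervals for all 9 ATG8 genes, between the cell types (left, without and with salt) and with salt (right, in cortex and in pericycle); filled points have an adjusted p under 0.05. In the left panel every point but that of ATG8C without salt lies below 0, and in the right panel ATG8C in pericycle is the point called.

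The machinery that makes and delivers ATG8 was looked at through a list of 34 genes, of which 12 were measured by 14 probe sets. Under control conditions 2 of the 14 probe sets were called lower in pericycle, none was higher, and the median was -0.27. Among all probe sets 8.18% were lower and 6.71% higher, so that a count of 2 is close to the background, and 1 to 4 of the 14 were called over the alternatives. Under salt 4 of 14 were lower and none higher, against 10.1% and 7.76% of all probe sets, with a median of -0.69 and 2 to 6 called over the alternatives. With salt, none of the 14 was called in either cell type in limma. Of all probe sets, 1.43% were called higher and 2.73% lower in cortex, and 1.04% and 0.95% in pericycle. At an unadjusted p under 0.05 there were 0 of the 14 in cortex and 1 in pericycle, and the medians were 0.07 and 0.00.

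Of the genes that attach ATG8 to lipid, the conjugating enzyme gene ATG3 differed between the cell types by -0.80 without salt (adjusted p = 0.101 in limma) and -0.61 with it (adjusted p = 0.144). The protease gene ATG4B was lower in pericycle under salt by 0.74 ± 0.218 (adjusted p = 0.0424), a call kept in 7 of 17 alternatives. ATG16, whose protein is part of the complex that directs conjugation to the membrane, differed by -0.75 under salt (adjusted p = 0.0884). With salt these 3 genes differed by 0.00 to 0.23 in cortex and by -0.37 to 0.28 in pericycle.

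Of the ATG1 kinase complex, which starts autophagosome formation, ATG1B was lower in pericycle by 1.02 ± 0.214 without salt and by 0.84 ± 0.191 with it (adjusted p = 0.00992 and 0.0127 in limma), and ATG1A was lower by 1.44 ± 0.181 with salt (adjusted p = 4.34e-04). ATG1A passed in 17 of 17 alternatives and ATG1B in 15 of 17 in each condition. Without pericycle control replicate 2 the control difference of ATG1B was -0.64 (adjusted p = 0.0527 in limma). ATG1A had a salt difference of 0.40 in cortex and -0.50 in pericycle, neither called (adjusted p = 0.34 and 0.261). The 2 probe sets of ATG1C, and those of ATG1T (dim), ATG13B and ATG101, were not called in any comparison.

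ATG14A, a subunit gene of the lipid kinase complex that marks the growing membrane, had probe sets that disagreed. The brighter was lower in pericycle by 2.80 ± 0.374 without salt and by 2.40 ± 0.335 with it (adjusted p = 9.30e-04 and 8.47e-04 in limma), with pericycle means of 1.97 and 2.79 under the dim limit. The other probe set of ATG14A was dim and differed by -0.61 and -0.68, not called. VPS38, of another complex of the same lipid kinase, SH3P2 of membrane delivery and the receptor gene C53 were not called in any comparison.

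Beyond the machinery, RAPTOR2, a partner gene of the TOR kinase that restrains autophagy, was lower in pericycle by 1.03 ± 0.299 without salt and 1.25 ± 0.268 with it (adjusted p = 0.0445 and 0.0096 in limma). The former call held in 8 of 17 alternatives and the latter in 17 of 17. RAPTOR1 was not called. The vacuolar processing enzyme genes, whose proteases mature other proteins in the vacuole, went both ways. ALPHA-VPE was lower in pericycle by 2.35 ± 0.403 without salt and by 3.56 ± 0.361 with it (adjusted p = 0.00365 and 1.22e-04), BETA-VPE was higher by 2.30 ± 0.426 and 2.54 ± 0.381 (adjusted p = 0.00545 and 0.0013), and GAMMA-VPE was lower by 0.70 ± 0.186 under salt (adjusted p = 0.0264, kept in 13 of 17 alternatives). None of these 5 genes was called with salt in either cell type in limma. The shares of all probe sets called were 1.43% higher and 2.73% lower in cortex, and 1.04% and 0.95% in pericycle. GAMMA-VPE in cortex was the one of the 5 with an unadjusted p under 0.05 (0.53, adjusted p = 0.188).

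**Figure D5:**
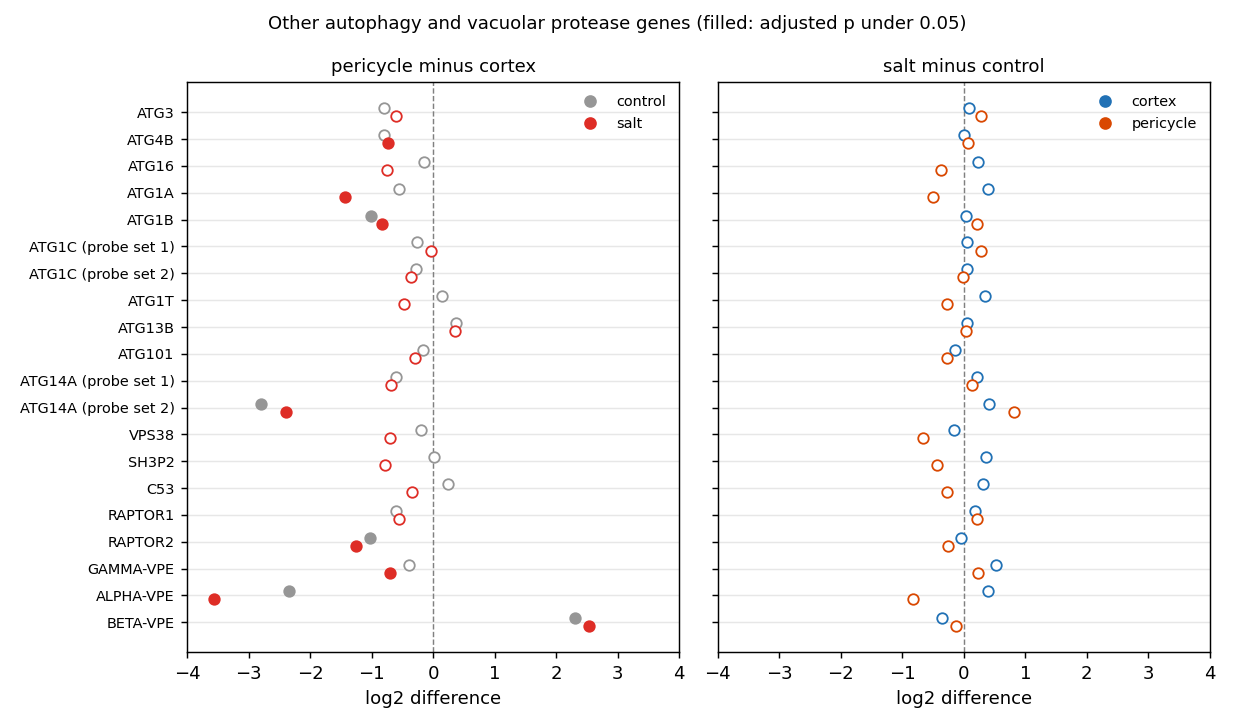
Log2 differences of 20 probe sets of other autophagy, TOR partner and vacuolar processing enzyme genes between the cell types (left) and with salt (right); filled points have an adjusted p under 0.05. Called points lie in the left panel, from -3.56 for ALPHA-VPE to 2.54 for BETA-VPE, and the right panel holds none.

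The levels of the 4 genes across the 11 arrays were compared with each other and with those of 7440 probe sets that had exactly 1 gene and were not dim. Pearson correlations over 11 arrays are descriptions, since these arrays fall into 2 cell types. They include pericycle salt replicate 1, which held the lowest values of APG8A and APG8H, and were not computed without it. APG8A and APG8H had r = 0.942, APG8A and ATG8H 0.816, and APG8H and ATG8H 0.728. Against these genes ATG8C had r = 0.393, 0.537 and -0.0643 with APG8A, APG8H and ATG8H. Within the 6 cortex arrays these were -0.631, -0.554 and -0.77, with the sign turned for APG8A and APG8H, and the other pairs in the order above had r = 0.63, 0.929 and 0.836. The genes with the profile nearest to APG8A were SCPL34, a serine carboxypeptidase-like gene (r = 0.99), AT3G49630 (0.987) and UGT72E1, a glucosyltransferase gene (0.986). SCPL34 had means of 8.16, 7.95, 5.47 and 5.33 in cortex control, cortex salt, pericycle control and pericycle salt samples. Nearest to APG8H were MSRB3, a methionine sulfoxide reductase gene (0.99), AT5G40510 (0.983) and AT4G22850 (0.982), and nearest to ATG8H were AT5G25940 (0.952), AT4G02940 (0.947) and AT1G70780 (0.944). Nearest to ATG8C were AT3G08960 (0.95), AT2G28755 (0.925) and AT2G17030 (0.915), and the last had means of 7.04, 7.41, 7.58 and 6.35 in the same order of groups.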

How the data were processed

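The authors deposited log2 expression values of 22810 probe sets on 11 arrays; per the submitters' processing notes RMA and limma were used, without versions, roles or a build. That the scale is log2 follows from the range of the deposited values, whose array medians are 3.41 to 3.58. How values near the floor were made is unknown, and folds near it may understate a change. The values were used as deposited, without the 64 control probe sets. The small number of arrays, 2 or 3 in a group, sets the precision.

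Probe sets took their gene from the platform annotation: 13513 had exactly 1 gene, 503 had several and were not named, and 13436 matched RefSeq of TAIR10.1 by gene identifier. No coordinates or sequences are printed. List genes were matched by locus.

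A model of all 11 arrays was fitted with R 4.3.3 and limma 3.58.1 (functions lmFit, contrasts.fit and eBayes), with 1 mean per group, 7 residual and 2.96 prior degrees of freedom. P values are two-sided with Benjamini-Hochberg adjustment in each comparison over 22746 probe sets, errors of differences are limma standard errors, and ranges beside them are 95% intervals. Alternatives were a fit of only the groups compared, a trended robust prior, array weights, no dim probe sets, quantile normalization, the replicate number as a block, and each array left out. The procedure was first tested on simulated data with the same spread in all groups. It was therefore not tested at the unequal spreads of the cortex and pericycle groups. Arrays with the same number correlated in their residuals by -0.151 to 0.107, so the numbers were not taken as pairs. Named were all ATG8 probe sets, list genes called at least once or otherwise the 2 with the largest difference, and for each of the 4 genes the 3 probe sets with the highest correlation; other uncalled list genes were named for completeness. The members and lists were chosen with earlier results of these data known.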

Additional observations from a re-analysis of the deposited data

Results flagged for a closer look

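ATG8C was singled out because the test of the difference between its salt responses passed, at the edge of the threshold. The test gave -1.26 (log2, pericycle minus cortex; adjusted p = 0.0499 in limma), and the call was lost in 13 of 16 alternatives. Its salt arrays lay above the control arrays in cortex and below them in pericycle. ATG8H was singled out because its arrays moved in opposite directions with salt, lower in all 3 cortex salt samples and higher in all 3 pericycle salt samples. Its response difference of 1.02 did not pass the test (adjusted p = 0.295 in limma). Of all probe sets, 14.8% were lower and 19.3% higher with salt without overlap in cortex, and 10.8% and 10.2% in pericycle. The test for an outlying value needs groups of at least 4 arrays, so it was not applied to single genes here.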

How the results depend on the processing

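Of the 20 differences of the 4 genes, 12 kept their direction and their side of the threshold under every alternative run, and 8 did not; causes were not tested. For ATG8C with salt in pericycle, the difference and its adjusted p in limma were -0.94 (0.585) with only the compared groups fitted, -0.94 (0.125) with a trended robust prior, -0.91 (0.248) with array weights, -0.94 (0.053) without dim probe sets and -0.89 (0.0885) with the replicate block, and -0.99 to -0.88 with an array left out (called in 3 of 11, without cortex control replicate 3 or pericycle salt replicate 1 or 3). For its difference of responses the same alternatives, without the first, gave -1.26 (0.184), -1.18 (0.127), -1.26 (0.0805) and -1.21 (0.118), and -1.34 to -1.13 with an array left out (called in 2 of 11, without pericycle salt replicate 1 or 3). ATG8C under salt was -0.77 with a trended robust prior (0.056). ATG8H with salt in cortex was called with array weights (-0.50, 0.0319), and APG8H between the cell types without salt was called with only these groups fitted (-1.23, 0.0424). With an array left out, these were -0.62 to -0.37 and -1.50 to -0.97, ATG8H under salt was -0.92 to -0.42, and APG8A with salt in pericycle was -0.65 to 0.22. The difference of responses of APG8A turned to 0.19 with array weights and was -0.46 to 0.41 with an array left out. Uncalled differences of other ATG8 genes also turned sign: ATG8B in cortex (-0.02 with array weights, -0.01 with quantile normalization), ATG8D in pericycle (0.52 with array weights) and in the difference of responses (0.10), and ATG8E under salt (0.08 with quantile normalization). With an array left out, the salt difference in cortex was -0.21 to 0.18 for ATG8B and -0.11 to 0.06 for ATG8F, and in pericycle -0.89 to 0.19 for ATG8B, -0.64 to 0.75 for ATG8D, -0.09 to 0.42 for ATG8E and -0.19 to 0.80 for ATG8F. The difference of responses was -0.92 to 0.16, -1.03 to 0.36 and -0.17 to 0.83 for ATG8B, ATG8D and ATG8F. Between the cell types it was -0.73 to 0.34 for ATG8B and -0.30 to 0.03 for ATG8D without salt, and -1.20 to 0.20 for ATG8D, -0.14 to 0.01 for ATG8E and -1.55 to 0.35 for ATG8G with it.

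Counts of called probe sets also changed with the alternatives. For salt in cortex 946 were called, 4487 with only these groups fitted, 4775 with array weights and 362 (without cortex salt replicate 3) to 1701 (without pericycle salt replicate 1) with an array left out. For salt in pericycle 453 were called, 0 with only these groups fitted (limma; 1502 at an unadjusted p under 0.05), 32 with array weights, 194 with the replicate block and from 183 when cortex salt replicate 2 was left out up to 1124 when pericycle control replicate 1 was, and 975 without pericycle salt replicate 1. For the difference of responses 190 were called, 121 with the replicate block and from 53 up to 635 when the left-out array was cortex salt replicate 3 or pericycle control replicate 1. Between the cell types the counts were 3387 without salt (2258 without cortex control replicate 2 to 5007 without pericycle salt replicate 1) and 4066 with it (2461 without cortex salt replicate 1 to 5102 without pericycle salt replicate 3). The replicate block ended the ATG8C calls for salt in pericycle and for the difference of responses, and the control call of ATG8F (-0.93, 0.0693), and among the other ATG8 differences it changed no call. The numbers were not found to pair the arrays.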
